A study of Homo sapiens with 9 samples.

Results

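The RNA levels of 10 human enzymes that interconvert active and inactive steroid hormones were followed in T47D cells. The cells were given vehicle, a progestin, or the progestin plus doxycycline, which induces a hairpin RNA to ELF5. The members were listed by gene symbol, with earlier results of these data known, and each was read from probe sets of Affymetrix HuGene 1.0 ST arrays that carry its symbol alone. Such a probe set was found for 9 of the 10 genes, among 18417 distinct symbols in all: HSD11B1, HSD11B2, HSD17B1, HSD17B2, HSD17B4, HSD17B8, SRD5A1, STS and AKR1C3. SRD5A3, a reductase best known for making the lipid carrier of protein glycosylation, was not analysed here. HSD17B8 has 3 probe sets with identical values on every array, which were counted as 1, and each other member has 1.

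T47D is an established luminal breast cancer line that carries the progesterone receptor. All cells, those with vehicle included, carried the retroviral vector pHUSH and so a hairpin RNA to ELF5 that is made once doxycycline is given. ELF5 is an ETS transcription factor of the mammary alveolar lineage. Of 9 arrays, 3 came from T47D-pHUSH-Elf5-shRNA cells with ethanol vehicle only, 3 from cells given 10 nM ORG2058 for 4 days, and 3 from cells given 10 nM ORG2058 and 0.1 µg/ml doxycycline for 4 days. The sample names say progesterone for ORG2058, which is a synthetic progestin. Each sample pooled cells from 3 wells, and how long the vehicle cells were treated is not stated in the labels. None of the 9 arrays had doxycycline without progestin or another hairpin, so an effect of doxycycline itself and an effect of the hairpin cannot be told apart.

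Steroid-converting enzymes set which hormone reaches its receptor inside a cell. The hydroxysteroid dehydrogenases switch a steroid between a hydroxyl and a keto form, and pairs of them run in opposite directions on the same substrate. The SRD5A reductases saturate the steroid ring of testosterone and progesterone, steroid sulfatase frees estrone and dehydroepiandrosterone from their sulfates, and the AKR1C enzymes reduce keto groups of androgens, progestins and prostaglandins. In breast tissue this network makes estradiol from circulating precursors and clears progesterone and cortisol.

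Levels are given as the deposited log2 values per probe set, and a level of a probe set is compared only with the same probe set on other arrays. The array medians lay between 7.19 and 7.28, and values below 0 numbered 97 in progestin replicate 3 against 14 to 41 elsewhere. None of the members had a value below 4.27. All 9 luminal markers checked, among them KRT8, GATA3 and ESR1, had vehicle means of 8.88 to 13.0. With progestin 1 of the 9, KRT19, rose and 3 fell: GATA3 by 0.51 (adjusted p = 0.00161), ESR1 by 0.50 (0.00196) and PGR. Of 17 basal, fibroblast, endothelial and immune markers, 4 were higher and 2 lower with progestin, where 29.0% of all probe sets passed the limma test. The highest vehicle means of the 17 were those of CDH5 (9.08) and COL1A1 (8.60). With progestin CDH5 rose by 0.30 (adjusted p = 0.0299) and COL1A1 fell by 0.42 (0.0136), so a sum over the 17 can hide opposite changes. When doxycycline was added to progestin 0 of the 17 passed, and 3 had an unadjusted p under 0.05, against 14.0% of all probe sets. Their summed level lay between 10.88 and 11.08 with vehicle, 11.03 and 11.10 with progestin, and 10.96 and 11.15 with doxycycline added, and their part in the results was not tested. ELF5, the hairpin's target, had a vehicle mean of 10.17 ± 0.109, a progestin mean of 11.28 ± 0.0455 and a mean of 10.42 ± 0.0608 once doxycycline was added (SD, n = 3). Its drop of -0.87 (SE 0.08, limma adjusted p = 0.029) had an adjusted p between 0.0263 and 0.149 with any single array left out, and of these 9 fits only that without vehicle replicate 3 kept it under 0.05. It was 0.175 with only the 2 groups fitted and 0.203 with a replicate block. The progesterone receptor gene PGR fell with progestin from 11.91 ± 0.021 to 9.63 ± 0.0445 (limma adjusted p = 2.96e-07). With doxycycline added PGR was at 9.96 ± 0.0872, 0.33 above progestin and without overlap (limma unadjusted p = 0.00138, adjusted p = 0.132). That adjusted p lay between 0.00417 and 0.376 over the alternative settings.

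With progestin, 3 members rose, 2 fell and 4 did not pass the test. HSD11B2 rose 12.6-fold, SRD5A1 2.50-fold and HSD17B1 2.11-fold, while STS fell 2.47-fold and HSD17B4 1.25-fold. The 5 of 9 members called stand against 29.0% of 21214 probe sets tested (limma, Benjamini-Hochberg adjusted p under 0.05), of which 13.4% were higher and 15.6% lower. Of the 9 members, 4 were both called and changed at least 2-fold, as were 5.32% of the 21214 probe sets. An unadjusted p under 0.05 was found for 6 members and 39.0% of probe sets, and the arrays of the 2 groups did not overlap for 6 members and 42.3% of probe sets; AKR1C3 is the sixth in both. The median log2 change of the members was 0.29, which is the change of HSD11B1 and did not pass the test. That of all probe sets was 0.02. In RNA from whole cultures, fewer cells of a type and less RNA per cell cannot be told apart.

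**Figure D1:**
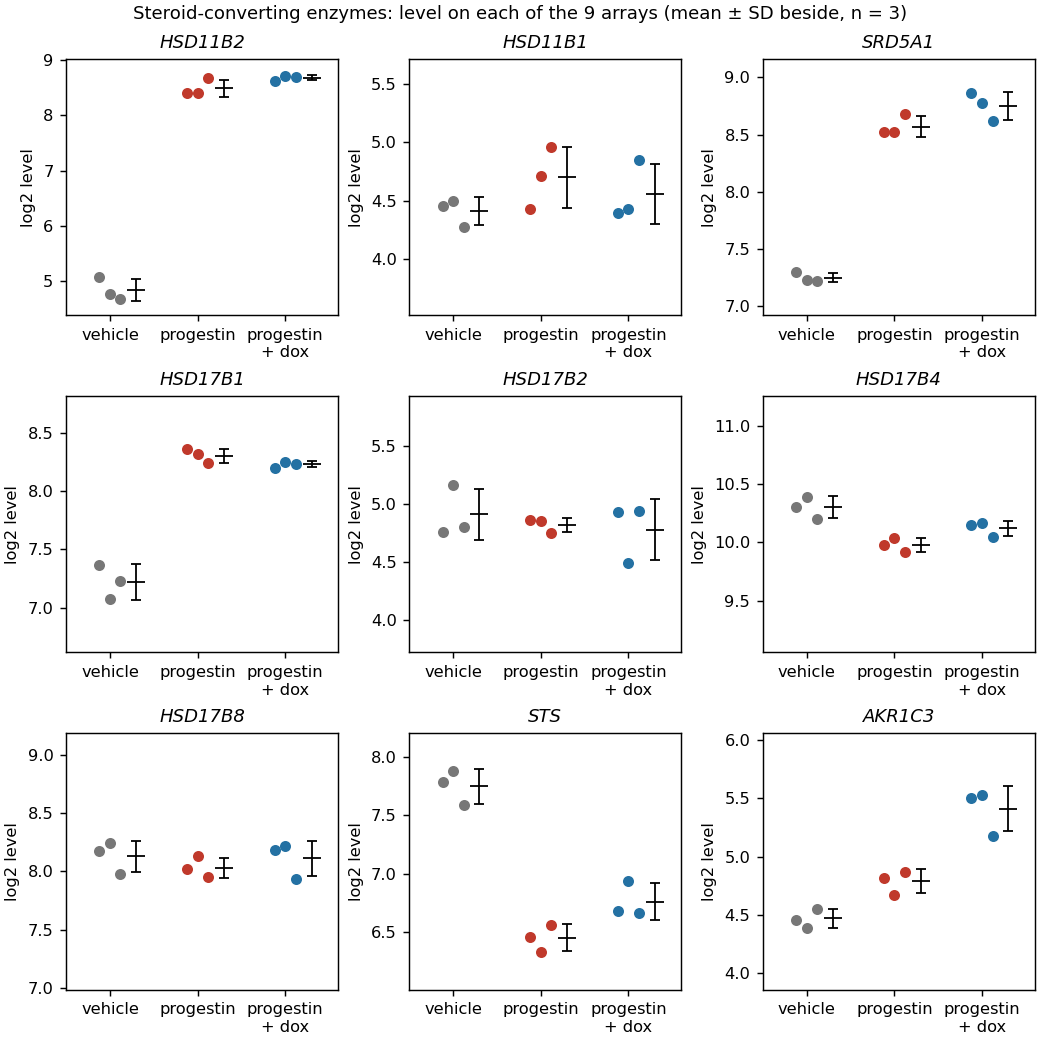
Log2 level of each of the 9 measured enzymes (vertical axis, 1 panel per gene with its own range) on the 3 arrays of the vehicle, progestin and progestin plus doxycycline groups; points are arrays and the bar beside them is the mean ± SD. HSD11B2, SRD5A1 and HSD17B1 sit higher and STS lower in both progestin groups than with vehicle, and AKR1C3 is highest with doxycycline added, at 5.18 to 5.53.

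Of the pair that acts on cortisol, HSD11B2 rose and HSD11B1 did not pass the test. HSD11B2 oxidises cortisol to inactive cortisone and so shields the mineralocorticoid receptor. It was at 5.07, 4.76 and 4.68 on the vehicle arrays, at 8.40, 8.40 and 8.67 with progestin, and at 8.63, 8.72 and 8.70 with doxycycline added. Both progestin groups lay more than 3 log2 units above vehicle, with a gap of 3.33 between the highest vehicle array and the lowest progestin array. The log2 change with progestin was 3.65 (SE 0.12, limma adjusted p = 4.22e-07) and with progestin plus doxycycline 3.85 (SE 0.12, adjusted p = 3.19e-07). The vehicle values were low, and the rise with progestin was 8.41-fold rather than 12.6-fold when 16 was added to each linear value before log2.

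HSD11B1 runs the reaction the other way and regenerates cortisol. It was at 4.45, 4.50 and 4.27 with vehicle, 4.43, 4.71 and 4.96 with progestin, and 4.39, 4.43 and 4.85 with doxycycline added. The 3 groups overlapped, and the change with progestin of 0.29 did not pass the test (95% interval -0.09 to 0.67, adjusted p = 0.244). H6PD, which supplies the cofactor for HSD11B1 inside the endoplasmic reticulum, did not pass either (0.22, SE 0.10, adjusted p = 0.162).

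SRD5A1 turns testosterone into dihydrotestosterone and progesterone into its ring-reduced form. It was at 7.30, 7.23 and 7.22 with vehicle, at 8.52, 8.52 and 8.68 with progestin, and at 8.86, 8.78 and 8.62 with doxycycline added. All 6 progestin arrays were at least 1.22 above the highest vehicle array, and the 2 progestin groups overlapped. The log2 change with progestin was 1.32 (SE 0.09, limma adjusted p = 1.38e-05), and with doxycycline added it was 1.50 against vehicle (SE 0.09, adjusted p = 6.02e-06).

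The HSD17B enzymes act on the hydroxyl or keto group that makes estradiol and testosterone strong or weak hormones. HSD17B1 reduces estrone to estradiol. It was at 7.37, 7.07 and 7.23 with vehicle, 8.36, 8.32 and 8.24 with progestin, and 8.20, 8.25 and 8.23 with doxycycline added. The progestin groups overlapped each other and stood clear of vehicle. Its log2 change was 1.08 with progestin (SE 0.09, limma adjusted p = 4.39e-05) and 1.01 with progestin plus doxycycline (SE 0.09, adjusted p = 6.11e-05).

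HSD17B2 oxidises estradiol back to estrone. It was at 4.76, 5.16 and 4.80 with vehicle, 4.86, 4.85 and 4.75 with progestin, and 4.93, 4.49 and 4.94 with doxycycline added. The groups overlapped in every comparison, and the change with progestin was -0.09 (95% interval -0.43 to 0.26, adjusted p = 0.724). The sign of this small change turned in 2 of 17 alternative settings, many of which leave the change itself as it was.

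HSD17B4 is a peroxisomal enzyme that oxidises estradiol and also shortens very long and branched fatty acids. It was at 10.30, 10.39 and 10.20 with vehicle, 9.98, 10.04 and 9.92 with progestin, and 10.15, 10.17 and 10.05 with doxycycline added. The doxycycline arrays lay between the other 2 groups, with gaps of only 0.01 to progestin and 0.03 to vehicle. The fall with progestin was -0.32 (SE 0.08, limma adjusted p = 0.0149). That call was lost without vehicle replicate 1 (adjusted p = 0.0513), vehicle replicate 2 (0.0563) or progestin replicate 3 (0.0505). With doxycycline added the change from vehicle was -0.18 (SE 0.08, adjusted p = 0.136).

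HSD17B8 oxidises estradiol and serves as a subunit in mitochondrial fatty acid synthesis. It was at 8.17, 8.24 and 7.98 with vehicle, 8.02, 8.13 and 7.95 with progestin, and 8.18, 8.22 and 7.93 with doxycycline added. All groups overlapped, and the change with progestin was -0.09 (95% interval -0.34 to 0.15, adjusted p = 0.565).

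STS, the steroid sulfatase that releases estrone from its circulating sulfate, was the member with the largest fall. It was at 7.79, 7.88 and 7.59 with vehicle, at 6.46, 6.33 and 6.56 with progestin, and at 6.68, 6.94 and 6.66 with doxycycline added. No group overlapped another, and the doxycycline arrays lay between the other groups, nearer to progestin. The log2 change was -1.31 with progestin (SE 0.12, limma adjusted p = 7.43e-05) and -0.99 with progestin plus doxycycline (SE 0.12, adjusted p = 0.000327). Adding doxycycline to progestin gave 0.31 (95% interval 0.05 to 0.58), with an unadjusted p of 0.027 and an adjusted p of 0.3.

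Sequence upstream of the transcription start was taken from RefSeq (GRCh38.p14) for the strongest fall and a clear rise for which a window was at hand. Windows existed for 7 of the 10 genes, with none for HSD11B2, HSD17B1 or HSD17B2, and the 250 bases before each start were searched on both strands for AGAACA, the hexamer of the element that progesterone and glucocorticoid receptors share, and for the palindrome ACANNNTGT. The gene table lists 5 starts for STS, and 2 of its windows hold the hexamer. In chrX:7147040-7147289 (plus strand) it lies on the minus strand, 105 bases before the start, and in chrX:7251994-7252243 (plus strand) on the plus strand, 249 bases before it. The SRD5A1 window, chr5:6633190-6633439 (plus strand), holds neither motif. The hexamer is in capitals.

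STS start 1: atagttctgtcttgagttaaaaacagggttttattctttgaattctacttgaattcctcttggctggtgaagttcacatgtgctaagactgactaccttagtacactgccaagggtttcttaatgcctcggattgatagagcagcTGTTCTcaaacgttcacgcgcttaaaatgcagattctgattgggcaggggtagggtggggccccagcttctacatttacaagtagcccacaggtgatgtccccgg
STS start 4: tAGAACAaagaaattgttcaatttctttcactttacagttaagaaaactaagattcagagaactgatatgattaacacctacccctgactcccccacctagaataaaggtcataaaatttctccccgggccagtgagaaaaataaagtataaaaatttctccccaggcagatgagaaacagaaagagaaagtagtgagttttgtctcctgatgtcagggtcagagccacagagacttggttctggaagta
SRD5A1: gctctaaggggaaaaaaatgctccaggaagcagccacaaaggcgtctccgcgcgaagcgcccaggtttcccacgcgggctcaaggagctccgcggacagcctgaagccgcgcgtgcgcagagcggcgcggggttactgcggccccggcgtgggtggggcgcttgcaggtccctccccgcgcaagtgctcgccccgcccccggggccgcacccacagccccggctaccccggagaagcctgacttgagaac

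AGAACA was found in 2 of the 12 member windows, both of STS, and in 12.4% of all 35116 windows of this length. ACANNNTGT was found in 0 of the 12 and in 4.61% of all. These are letter matches in a short window, and no binding was measured.

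AKR1C3 reduces androstenedione to testosterone and also makes prostaglandin F. It was at 4.46, 4.39 and 4.55 with vehicle, 4.82, 4.67 and 4.87 with progestin, and 5.50, 5.53 and 5.18 with doxycycline added. The 3 groups did not overlap, with vehicle lowest and doxycycline highest. The change with progestin alone was 0.32 (SE 0.11) and did not pass the test (limma adjusted p = 0.0616). Over the alternatives its adjusted p lay between 0.0111 and 0.276, and it passed with array weights (0.0111), with only the 2 groups fitted (0.0462) and without progestin plus doxycycline replicate 3 (0.0265). With progestin plus doxycycline AKR1C3 was 1.92-fold above vehicle (0.94, SE 0.11, adjusted p = 0.000333), or 1.53-fold with 16 added to the linear values. Its levels were among the lowest 25% of all probe sets, as were those of HSD11B1 and HSD17B2, and the AKR1C genes are close copies of each other, so signal shared between them is possible.

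With doxycycline added to progestin, 0 of the 9 members passed the limma test, against 0.0189% of all probe sets (4 of 21214). That number of probe sets was 0 to 2 with 1 array left out. It was 158 without the dimmest 25% of probe sets, where only 6 members were tested and AKR1C3, HSD11B1 and HSD17B2 were not. It was 530 with a robust fit of an intensity trend, and 0 members passed under any of these settings. An unadjusted p under 0.05 was found for 2 members, AKR1C3 and STS, against 14.0% of all probe sets. The groups did not overlap for 3 members, AKR1C3, STS and HSD17B4, against 21.2% of all probe sets, and in all 3 the level was higher with doxycycline, as in 14.8% of all probe sets. AKR1C3 had the widest difference, 0.62 (95% interval 0.37 to 0.87), with an unadjusted p of 0.000434 and an adjusted p of 0.12 that lay between 0.0783 and 0.37 over the alternatives. The SE of this difference was 0.11, and 0.21 with a robust fit of an intensity trend. With 16 added to the linear values the AKR1C3 difference was 0.42, or 1.34-fold. The intervals of the 3 genes that rose with progestin were -0.08 to 0.47 for HSD11B2, -0.02 to 0.38 for SRD5A1 and -0.27 to 0.13 for HSD17B1. An exact two-sided permutation test of 3 arrays against 3 cannot give a p under 0.1 and gave that value for the 3 members without overlap.

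Progestin plus doxycycline against vehicle called 5 of the 9 members, 4 higher and 1 lower, against 28.1% of all probe sets (15.6% higher, 12.5% lower). The groups did not overlap for 6 members and 41.8% of all probe sets. HSD11B2, SRD5A1, HSD17B1 and AKR1C3 were higher and STS lower. This comparison shares its vehicle arrays with the first comparison and its doxycycline arrays with the second. AKR1C3 passed here and not with progestin alone, and HSD17B4 passed with progestin alone and not here, but the test of the difference itself is the doxycycline comparison above, which neither passed (AKR1C3 adjusted p = 0.12, HSD17B4 0.453).

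**Figure D2:**
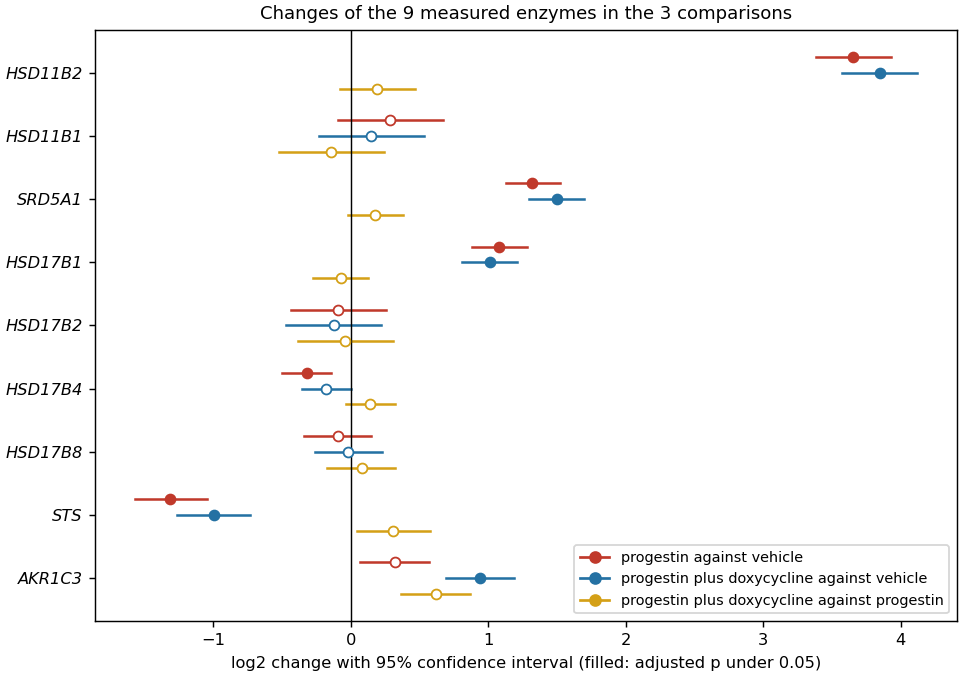
Log2 change (horizontal axis) of each measured enzyme in the 3 comparisons, with the 95% confidence interval of the limma fit; filled points passed an adjusted p of 0.05. The intervals of HSD11B2, SRD5A1, HSD17B1 and STS against vehicle lie away from 0 in both progestin groups, and 0 of the 9 doxycycline changes passed.

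Over 3 lists of other genes of the pathway, 15 of 50 measured genes passed the test with progestin, near the 29.0% of all probe sets. Among 20 measured of 22 further dehydrogenases and reductases of the pathway, 5 rose and 3 fell with progestin, with a median of 0.17 against 0.02 over all probe sets. AKR1D1, which reduces the ring of progesterone and cortisol in the liver, went from 3.39 ± 0.313 to 5.37 ± 0.119 (SD, n = 3; adjusted p = 4.31e-05). AKR1C2, which inactivates dihydrotestosterone, went from 4.25 ± 0.754 to 6.14 ± 0.249 (adjusted p = 0.00601). Both started from very low signal, and with 16 added to the linear values they rose 2.16-fold and 2.42-fold rather than 3.96-fold and 3.71-fold. HSD17B6, which converts androgen metabolites, rose by 0.63 (SE 0.10), HSD3B2, which makes progesterone from pregnenolone, by 0.61 (SE 0.19) and AKR1C1, which inactivates progesterone, by 0.50 (SE 0.16). HSD3B2 also started from low signal, with a vehicle mean of 4.7, and rose by 0.41 with 16 added to the linear values.

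The calls of HSD3B2 and AKR1C1 lay near the threshold. With any 1 array left out the changes stayed between 0.53 and 0.77 for HSD3B2 and between 0.37 and 0.59 for AKR1C1. HSD3B2 was not called when any 1 of the 3 vehicle arrays, or progestin replicate 2 or 3, was left out (adjusted p = 0.0856 to 0.118). AKR1C1 was not called when vehicle replicate 2 or 3, any 1 of the 3 progestin arrays, or progestin plus doxycycline replicate 3 was left out (adjusted p = 0.0561 to 0.138), nor with only the 2 groups fitted (0.0687) or with a replicate block (0.0736). Neither passed after quantile normalization (0.114 and 0.082) or with all probe sets tested (0.0733 and 0.0808). The second probe set of AKR1C1, with a lower vehicle mean of 4.67 against 6.12, gave a larger change of 1.30 (SE 0.14, adjusted p = 0.000202). HSD17B12, an enzyme of very long fatty acid synthesis that can also reduce estrone, fell by 0.46 on the log2 scale (SE 0.08), and the dehydrogenase-like genes HSDL1 and HSDL2 fell by 0.37 and 0.32.

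All 14 genes of sulfation, desulfation and uptake were measured, and 3 rose and 2 fell, with a median of -0.03. These 5 of 14 stand against 29.0% of all probe sets. PAPSS2, which makes the sulfate donor that sulfotransferases use, lay at 8.99 to 9.11 with vehicle and 6.41 to 6.89 with progestin. This was a 5.41-fold fall (SE of the log2 change 0.13, adjusted p = 5.76e-06). Its relative PAPSS1 fell by 0.45 (SE 0.08, adjusted p = 0.00402). The sulfotransferase SULT1A1 rose by 0.63 (SE 0.07). SUMF1, which installs the active-site residue that sulfatases such as STS need, rose by 0.57 (SE 0.06, adjusted p = 0.000259) and its paralogue SUMF2 by 0.38 (SE 0.09).

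Of the genes of steroid synthesis, hydroxylation and electron supply, 16 of 20 were measured, and 1 rose and 1 fell, with a median of 0.06. These 2 of 16 stand against 29.0% of all probe sets. CYP1B1, which hydroxylates estradiol, went from 10.10 ± 0.0316 to 8.64 ± 0.14 (SD, n = 3; change -1.46, SE 0.09, adjusted p = 9.27e-06). CYB5A, an electron donor to steroid-metabolising cytochromes, rose by 0.53 (SE 0.11, adjusted p = 0.00767). Aromatase, CYP19A1, which makes estrogens from androgens, had low signal, with a vehicle mean of 3.95. The change of CYP19A1 was -0.28 (SE 0.44, limma adjusted p = 0.695). With doxycycline added to progestin, 0 of the 50 genes measured in the 3 lists passed the limma test, and 4 had an unadjusted p under 0.05, against 14.0% of all probe sets.

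**Figure D3:**
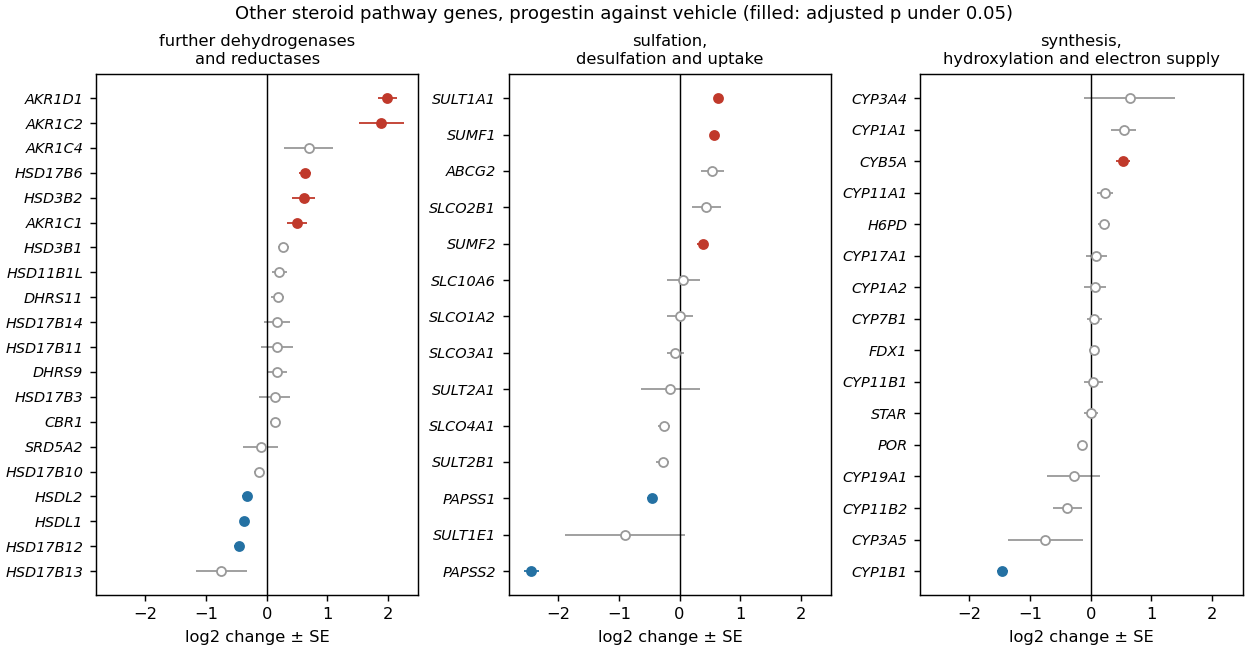
Log2 change with progestin against vehicle, with its SE, for the 20, 14 and 16 measured genes of the 3 other pathway lists (1 panel each, genes on the vertical axis); filled red points rose and filled blue points fell at an adjusted p of 0.05, and open points did not pass. AKR1D1, AKR1C2, PAPSS2 and CYP1B1 lie farthest from 0 among those that passed.

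The 4 members that changed at least 2-fold with progestin were set against every other gene by the root mean square difference over the 9 arrays, each probe set centred on its own mean. For HSD11B2 the nearest were VTCN1, an immune checkpoint protein of epithelial cells, at 0.0633, and the interferon-induced genes IFI6 at 0.142 and EPSTI1 at 0.165, against a median of 1.78 over all genes. For SRD5A1 they were ID3, an inhibitor of helix-loop-helix factors, at 0.0795, PTPRU at 0.0835 and the amino acid transporter SLC7A8 at 0.0859, against a median of 0.699. For HSD17B1 they were CCDC177 at 0.0797, SASH1 at 0.0815 and the TGF-beta pseudoreceptor BAMBI at 0.089, against 0.53. For STS they were the calcium pump ATP2B4 at 0.0668, the semaphorin SEMA3C at 0.077 and the syndecan SDC2 at 0.0783, against 0.62. These genes were picked for their likeness over the same arrays, so their changes follow from the choice.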

How the data were processed

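Total RNA from 9 samples was hybridised to Affymetrix HuGene 1.0 ST arrays, with cells pooled from 3 wells per sample, per the labels. The authors deposited log2 values per probe set. PLIER, limma, Affymetrix Expression Console and Affymetrix Power Tools are listed in the submitters' processing notes, with no order or role, and no source used here gives the background correction or normalization. The log2 scale was read from the values.

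Of 33297 probe sets, 19460 had 1 gene symbol, 1754 several and 12083 none in the platform annotation, and 19429 of the single-symbol ones matched RefSeq by gene ID with 0 symbols changed. The 21214 named probe sets were fitted together (limma 3.58.1, R 4.3.3) as 3 group means with eBayes, and p-values were adjusted by Benjamini-Hochberg with a threshold of 0.05. The fit was tested on simulated data with changes set only in the brighter probe sets, so that test does not cover dim members. The probe set with the highest mean stood for a gene. With 3 arrays a group limiting precision, the median SE of a change was 0.12. The design text calls the experiments independent; p-values reflect only how these arrays spread.

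The members, the pathway lists and the rule for named genes were chosen with earlier results of these data known. The text names all members, ELF5, PGR, up to 6 called genes per list by size of change, and the 3 nearest patterns of members changed at least 2-fold. HSDL1, HSDL2, CYP19A1, H6PD, HSD3B1 and FDX1 were named outside that rule, after their values were seen. So were the markers KRT19, GATA3, ESR1, CDH5 and COL1A1, and HSD17B6 and ABCG2 in the doxycycline comparison. Of the 18 alternative settings, 9 left out 1 array. Others added 16 to the linear values, used quantile normalization, left out the dimmest 25% of probe sets or tested all probe sets. The rest used a robust fit of an intensity trend, array weights, only the 2 groups compared, a replicate block or the mean of all probe sets of a gene. What they changed for the members is in the closing section. RefSeq names pseudogenes of HSD17B1, SRD5A1 and STS, whose share in the signal is not known. Replicate numbers were not taken as pairs, as the labels give no pairing and deviations of same-numbered arrays did not go together throughout.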

Additional observations from a re-analysis of the deposited data

How the results depend on the processing

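Over 27 member changes and up to 18 settings each, 469 of 477 recomputed values stayed on their side of the threshold. The mean of all probe sets of a gene is among these settings. It could not alter a member's level, as no member has probe sets that differ. The sign turned in 0 of 179 recomputed values of called changes, and in 8 of the others, 6 of HSD17B2 and 2 of HSD17B8. Many of these values could not turn. Settings that alter only the spread, the probe sets tested or the group outside the comparison leave the change itself as it was. A change that rounded to 0.00 was not counted as turned. Of the 8 that crossed the threshold, 3 were HSD17B4 calls with progestin lost with 1 array left out, 3 were AKR1C3 calls gained with progestin, and 2 were HSD17B4 calls gained with progestin plus doxycycline against vehicle (adjusted p = 0.0423 with a robust fit of an intensity trend, 0.0211 under array weights). The members called numbered 4 to 6 with 1 array left out and 5 to 6 under the other settings for progestin against vehicle, 0 throughout for doxycycline added to progestin, and 5, and 4 to 6, for progestin plus doxycycline against vehicle. Without the dimmest 25% of probe sets HSD11B1, HSD17B2 and AKR1C3 were not tested, which left 6 members.

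The number of probe sets called with progestin was 9502 under array weights, against 6161. For doxycycline added to progestin it was 15 with 16 added to the linear values (11 higher, 4 lower, against 2 and 2), 158 without the dimmest probe sets (140 higher, 18 lower), 12 with all probe sets tested, 530 with a robust fit of an intensity trend (478 higher, 52 lower), 8 under array weights, 0 with only the 2 groups fitted, 0 with a replicate block and 0 to 2 with 1 array left out, against 4. The cause was not tested. Same-numbered arrays had correlations of their deviations between -0.146 and 0.196 (9 pairs), 1 of them above 0.1, or between -0.279 and 0.42 without the dimmest probe sets, 2 of them above 0.1. Differently numbered arrays had correlations between -0.182 and 0.17 (18 pairs), or between -0.453 and 0.277 without the dimmest probe sets. In the latter setting the highest were of vehicle with progestin plus doxycycline, replicate 2 (0.42) and replicate 3 (0.37), so pairing of these is not excluded. The replicate block changed no member's call: HSD11B2 had an adjusted p of 3.45e-05, STS of 0.000878 and HSD17B4 of 0.0177 with progestin. Dim signal limits HSD11B1, HSD17B2, AKR1C3 and the vehicle level of HSD11B2.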

Other observations

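In the 3 other pathway lists, 4 of 50 genes had an unadjusted p under 0.05 when doxycycline was added to progestin, against 14.0% of all probe sets, and 0 passed the limma test over all probe sets. HSD17B6 lay at 5.91 ± 0.141 with progestin and 6.27 ± 0.0934 with doxycycline added (SD, n = 3; 0.37, adjusted p = 0.183). ABCG2, an efflux pump that exports sulfated estrogens, lay at 5.22 ± 0.355 and 5.92 ± 0.102 (0.70, adjusted p = 0.179). The other two were lower with doxycycline. HSD3B1, which makes progesterone from pregnenolone, lay at 6.87 ± 0.137 and 6.55 ± 0.0803 (-0.33, adjusted p = 0.198). FDX1, an electron carrier to mitochondrial cytochromes, lay at 9.69 ± 0.0995 and 9.50 ± 0.0529 (-0.19, adjusted p = 0.339).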
